A study of Mus musculus with 8 samples.

Results

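The genes of the collagen chains were measured in mouse embryonic fibroblasts (MEFs), matrix-making cells cultured from whole embryos, after 6 h of IFN-beta, a type I interferon released during viral infection. The members were all gene symbols made of Col, a number, the letter a and a number, which gave 44 of the 24015 symbols counted. The cells were wild type MEFs on a C57BL/6 background from E12.5 embryos, at passages 15 to 18, a late passage range for such cells. RNA-seq was done on 2 libraries of MEFs exposed to murine recombinant IFN-beta (100 units/mL, 6 h) and on 2 libraries of untreated MEFs. Replicates are numbered in the labels but not tied to separate cultures. The p-values therefore reflect the spread of these 4 libraries, and that spread may be technical.

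Collagens are the main structural proteins of the extracellular matrix, built from alpha chains that wind around each other in a triple helix. Fibrillar collagens form the rope-like fibres of skin, bone and tendon, network collagens form sheets such as the basement membrane, and the remaining classes decorate fibrils, link them to other structures or sit in the cell membrane. Fibroblasts are the main source of type I, III, V and VI collagen in loose connective tissue. Interferons are known from studies of human and rodent fibroblasts as agents that can lower collagen production.

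At 6 h of IFN-beta, the median change of the collagen genes of these cells was near 0. Of the 44 members, 23 had enough reads to be tested, and Col28a1 was the 1 gene that rose and Col27a1 the 1 gene that fell (adjusted p below 0.05 by the Benjamini-Hochberg method, from edgeR's quasi-likelihood test). Over all 12128 genes tested, 4.73% rose and 0.495% fell by the same rule, 5.23% in all. Col28a1 (11 and 12 counts with IFN-beta, 2 in each untreated library) reached the read minimum for testing only through the treated libraries. A gene that does so had to differ, so its call carries little weight. An unadjusted p under 0.05 was reached by 6 of the 23 and by 18.2% of all genes tested. The median log2 fold change was 0.019 over the 23 collagen genes and -0.019 over all genes tested, and 17 of the 23 values lay within 0.5 of 0. The abundant type I, III, V and VI chains gave no call. With 2 libraries a group, the lack of a call does not show a lack of change. In 6 of the 23 genes both IFN-beta libraries were above both untreated libraries, and in 5 both were below. Over all genes tested, those shares were 23.9% and 26.8%. In bulk RNA, fewer cells of a type and less RNA per cell cannot be told apart.

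These counts moved with the libraries kept, and so did those over all genes. Without untreated replicate 1, 1 of 25 collagen genes tested rose and 2 fell, beside 6.91% and 1.82% of all genes tested in that fit. Without untreated replicate 2, 6 of 26 rose and 3 fell, beside 15.3% and 14.0% of all genes tested, so calls were more frequent over the whole table there. Without IFN-beta replicate 1 or replicate 2, 0 rose and 0 fell in either case, and in each of these 4 fits 1 group holds a single library that is assumed to vary like the other group. The DESeq2 Wald test gave 0 higher and 1 lower, beside 5.13% and 0.849% of all genes tested.

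Together the 44 genes took 0.520% and 0.521% of all gene counts in the IFN-beta libraries, against 0.503% and 0.542% in the untreated libraries. The 95% Wilson intervals of these shares, which cover counting error only, were 0.517% to 0.523% and 0.518% to 0.524% with IFN-beta, and 0.4997% to 0.506% and 0.539% to 0.545% without. By this plain share, the untreated libraries lay on either side of the IFN-beta libraries. Levels below are in CPM, read counts scaled to library size after TMM normalization. On that scale the summed collagen level was 5469 ± 52.9 CPM with IFN-beta and 4970 ± 183 CPM untreated (SD, n = 2 each). Both treated libraries (5506 and 5432 CPM) were above both untreated ones (4840 and 5099 CPM), a difference that was not tested. Rn45s, Lars2 and Mir6236 took 14.5% and 13.02% of the gene counts with IFN-beta and 5.94% and 7.52% untreated, which lowers the plain share of every other gene in the treated libraries. With those genes out of the denominator, the collagen share was 0.608% and 0.599% with IFN-beta and 0.535% and 0.586% untreated.

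**Figure D1:**
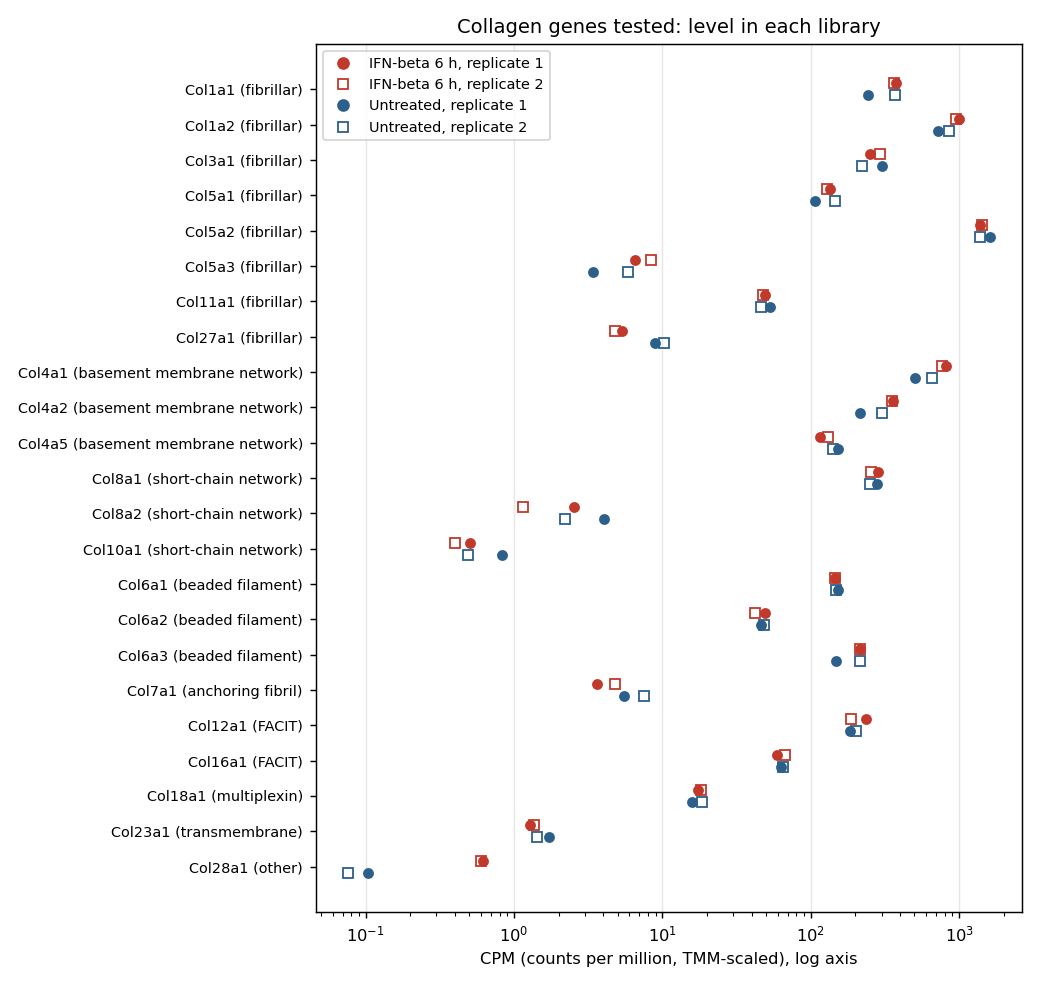
Level of each of the 23 collagen genes tested in each library, in CPM on a log axis, with IFN-beta libraries in red above untreated libraries in blue, circles for replicate 1 and open squares for replicate 2. Col28a1 is the gene whose red points sit farthest from its blue points, at 0.616 and 0.604 CPM with IFN-beta and 0.104 and 0.0758 CPM untreated.

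Collagen reads came mostly from fibrillar and basement membrane genes. Fibrillar genes held 58.2% and 59.6% of all collagen counts with IFN-beta and 63.3% and 59.7% untreated. Basement membrane genes held 23.3% and 23.1% with IFN-beta and 18.0% and 21.5% untreated. The beaded filament (type VI) genes held 7.45% in each IFN-beta library, against 7.17% and 8.07% untreated. Short-chain network genes and the FACIT class, collagens that attach to the surface of fibrils, each stayed between 4.69% and 5.89% in all 4 libraries. Each of the other classes stayed at or below 0.363%. A longer transcript collects more reads, and no transcript lengths were used, so these shares and the order of genes below describe reads and not molecules.

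In all 4 libraries Col5a2, Col1a2 and Col4a1 were the 3 collagen genes with the most reads, in that order. Below them the order was not stable. The untreated ranges of Col1a1 (242 to 367 CPM), Col4a2 (216 to 304 CPM), Col3a1 (222 to 300.4 CPM) and Col8a1 (249.6 to 280 CPM) overlapped each other. In total, 16 members reached a mean of 10 CPM in either group.

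Type I collagen, the main fibre protein of skin and bone, is made of chains from Col1a1 and Col1a2. Col1a1 had 377 and 364 CPM with IFN-beta, against 242 and 367 CPM untreated. Col1a2 had 998 and 959 CPM with IFN-beta, against 724 and 860.0 CPM untreated. For Col1a1 the groups overlapped, because untreated replicate 2 stood at the treated level and untreated replicate 1 below it, while for Col1a2 both treated libraries were above both untreated ones. Neither passed the test, with log2 fold changes of 0.28 ± 0.18 (SE, adjusted p = 0.448) and 0.30 ± 0.14 (adjusted p = 0.282). The Col1a1 value was 0.62 (adjusted p = 4.7e-05) without untreated replicate 2 and 0.038 without untreated replicate 1. Col1a2 passed without untreated replicate 2 as well (0.43, adjusted p = 0.0087).

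Type III collagen, which mixes with type I in elastic tissues, comes from Col3a1 alone. Its level was 253 and 292 CPM with IFN-beta and 300.4 and 222 CPM untreated, so the groups overlapped (0.062 ± 0.16, adjusted p = 0.879). Type V collagen seeds and limits the width of type I fibrils. Its Col5a2 chain gene had 1381 and 1429 CPM with IFN-beta and 1623 and 1386 CPM untreated (-0.099 ± 0.14, adjusted p = 0.763). Col5a1 had 136 and 129 CPM with IFN-beta and 107 and 145 CPM untreated (0.067 ± 0.16, adjusted p = 0.862). In all 3 genes the treated libraries fell inside or overlapped the untreated range. The minor chain gene Col5a3 was much lower in reads, at 6.55 and 8.36 CPM with IFN-beta and 3.43 and 5.87 CPM untreated. Its groups did not overlap, and it did not pass (0.66 ± 0.27, adjusted p = 0.237). It passed without untreated replicate 2 (1.12, adjusted p = 9.6e-05) and when no count filter was set (adjusted p = 0.0420).

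Col11a1, whose chain is best known from cartilage fibrils and can replace type V chains, had 48.8 and 48.0 CPM with IFN-beta and 53.5 and 46.1 CPM untreated (-0.038 ± 0.14, adjusted p = 0.913). Cartilage partners were close to absent. Col2a1, the main cartilage collagen gene, had 3 pooled counts with IFN-beta and 9 untreated, and Col11a2 had 15 and 23. Col24a1 had 4 pooled counts with IFN-beta and 0 untreated.

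Col27a1, a fibrillar collagen gene expressed in developing cartilage, was lower with IFN-beta. It had 96 counts in each treated library and 172 and 271 counts in the untreated ones, which is 5.38 and 4.83 CPM against 8.94 and 10.3 CPM. The groups were well apart, with the lower untreated library above the higher treated one. The log2 fold change was -0.91 ± 0.20 (SE, adjusted p = 0.0254), a ratio of 0.530 IFN-beta over untreated. The call was lost without IFN-beta replicate 1 (-0.99, adjusted p = 0.104) or replicate 2 (-0.84, adjusted p = 0.209), and it held in the other 11 alternatives. The gene overlaps Mir455, which had 0 counts in all 4 libraries.

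Basement membrane collagen is a sheet-like network whose commonest molecule joins chains of Col4a1 and Col4a2. Col4a1 had 811 and 773 CPM with IFN-beta, against 504 and 653 CPM untreated. Col4a2 had 357 and 353 CPM with IFN-beta, against 216 and 304 CPM untreated. In both genes the treated libraries were above both untreated ones, and untreated replicate 1 was the lowest of the 4. The log2 fold changes were 0.45 ± 0.15 (adjusted p = 0.143) and 0.45 ± 0.16 (adjusted p = 0.183), which did not pass. Both passed when no count filter was set (adjusted p = 0.0196 and 0.0258). Without untreated replicate 2 the values were 0.65 and 0.71, and without untreated replicate 1 they were 0.30 and 0.24. Each of these fits holds a single untreated library.

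Col4a5, an X-linked chain gene of kidney and skin basement membranes, pointed the other way. It had 115 and 132 CPM with IFN-beta and 152 and 141 CPM untreated, with no overlap between groups and no call (-0.25 ± 0.13, adjusted p = 0.349). The remaining chain genes were near background. Col4a3 had 6 pooled counts with IFN-beta and 17 untreated, of which 15 came from untreated replicate 1. Col4a4 had 8 and 3 pooled counts in that order, and Col4a6 had 4 and 3.

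Col4a1 and Col4a2 lie head to head on chromosome 8 and start so close together that their promoter windows overlap by 78 bases on opposite strands. The windows below run from 250 bases before to 50 bases after each RefSeq start (build GRCm38.p6) and are shown because these neighbours stood at similar fold changes. Capitals mark a CCAAT box (CCAAT) or a GC box (GGGCGG), read on either strand.
Col4a1, chr8:11312777-11313076, minus strand: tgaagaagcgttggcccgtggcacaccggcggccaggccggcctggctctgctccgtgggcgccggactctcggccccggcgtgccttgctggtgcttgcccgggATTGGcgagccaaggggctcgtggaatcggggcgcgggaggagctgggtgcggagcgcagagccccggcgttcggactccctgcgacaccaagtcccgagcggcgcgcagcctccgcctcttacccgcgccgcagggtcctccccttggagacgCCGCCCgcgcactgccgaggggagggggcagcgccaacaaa
Col4a2, chr8:11312555-11312854, plus strand: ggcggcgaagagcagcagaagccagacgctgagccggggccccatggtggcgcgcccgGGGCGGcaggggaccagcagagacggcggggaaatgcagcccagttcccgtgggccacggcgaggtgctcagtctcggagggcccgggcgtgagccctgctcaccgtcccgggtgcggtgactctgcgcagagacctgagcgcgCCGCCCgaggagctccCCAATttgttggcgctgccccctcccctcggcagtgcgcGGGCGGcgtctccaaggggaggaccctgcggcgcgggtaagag
The Col4a1 window held 1 CCAAT box and 1 GC box, and the Col4a2 window 1 CCAAT box and 3 GC boxes. The shared stretch held 1 GC box and 0 CCAAT boxes. Both windows were rich in G and C (74.0% and 73.7%, against a median of 52.7% over all promoter windows), and neither held TATAAA. Since the strand setting of the counts is not given in the sources used here, reads from the small overlap of the transcripts cannot be assigned to either gene.

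Type VI collagen forms beaded filaments around cells. Col6a1 had 146 and 147 CPM with IFN-beta and 152 and 149 CPM untreated (-0.042 ± 0.12, adjusted p = 0.887). Col6a2 had 49.5 and 42.0 CPM with IFN-beta and 46.2 and 48.6 CPM untreated (-0.052 ± 0.14, adjusted p = 0.884). Col6a3 had 214 and 216 CPM with IFN-beta and 149 and 213 CPM untreated (0.25 ± 0.17, adjusted p = 0.473). The Col6a3 libraries were level apart from untreated replicate 1, and without untreated replicate 2 the gene passed (0.53, adjusted p = 0.00049). Col6a4 had 13 pooled counts with IFN-beta and 12 untreated, Col6a5 had 2 and 1, and Col6a6 had 0 in all libraries.

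Of the short-chain network genes, Col8a1, known from vessel walls and the cornea, was high in reads and level. It had 284 and 253 CPM with IFN-beta and 280 and 249.6 CPM untreated (0.019 ± 0.13, adjusted p = 0.956). Its partner gene Col8a2 had 2.52 and 1.16 CPM with IFN-beta and 4.05 and 2.20 CPM untreated, with overlap (-0.75 ± 0.41, adjusted p = 0.376). Without untreated replicate 2 Col8a2 was lower (-1.16, adjusted p = 0.0024). Col10a1, the collagen gene of hypertrophic cartilage, had 17 pooled counts with IFN-beta and 29 untreated. It reached the expression filter through the untreated libraries, lies within the larger gene Nt5dc1, and was not called (-0.51 ± 0.49, adjusted p = 0.627). Col7a1, which makes the anchoring fibrils that hold skin layers together, had 3.64 and 4.78 CPM with IFN-beta and 5.56 and 7.50 CPM untreated. Its groups did not overlap and it did not pass (-0.64 ± 0.25, adjusted p = 0.206), though it was lower without untreated replicate 1 (-0.80, adjusted p = 0.0094).

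Among fibril-associated genes, Col12a1 and Col16a1 carried nearly all the reads. Col12a1, a collagen of tendon and stressed tissue, had 236 and 187 CPM with IFN-beta and 184 and 201 CPM untreated (0.13 ± 0.14, adjusted p = 0.671). Col16a1 had 59.3 and 67.2 CPM with IFN-beta and 62.7 and 64.7 CPM untreated (-0.0090 ± 0.13, adjusted p = 0.980). Both overlapped between groups. Col18a1, the basement membrane collagen gene from which endostatin is cut, had 17.3 and 18.2 CPM with IFN-beta and 15.8 and 18.5 CPM untreated (0.051 ± 0.16, adjusted p = 0.901). The membrane-spanning Col23a1 had 1.29 and 1.36 CPM with IFN-beta and 1.71 and 1.44 CPM untreated (-0.24 ± 0.32, adjusted p = 0.745).

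Col28a1, a collagen gene with von Willebrand factor A domains that is best known from peripheral nerve, was the member that rose. It had 11 and 12 counts with IFN-beta and 2 counts in each untreated library, which is 0.616 and 0.604 CPM against 0.104 and 0.0758 CPM. The log2 fold change was 2.72 ± 0.62 (SE, adjusted p = 0.0323). The ratio of pooled counts, scaled for depth, was 6.96 (exact 95% interval 2.38 to 27.7, counting error only). Col28a1 passed the expression filter only through the libraries in which it was high, and a gene that does so had to differ. The call was lost with the DESeq2 Wald test (2.79, adjusted p = 0.222), without untreated replicate 2 (2.48, adjusted p = 0.0691) and when IFN-beta replicate 1 or 2 was left out (adjusted p = 0.171 and 0.148). With the stricter filter of 1 CPM in at least 2 libraries it was not tested.

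**Figure D2:**
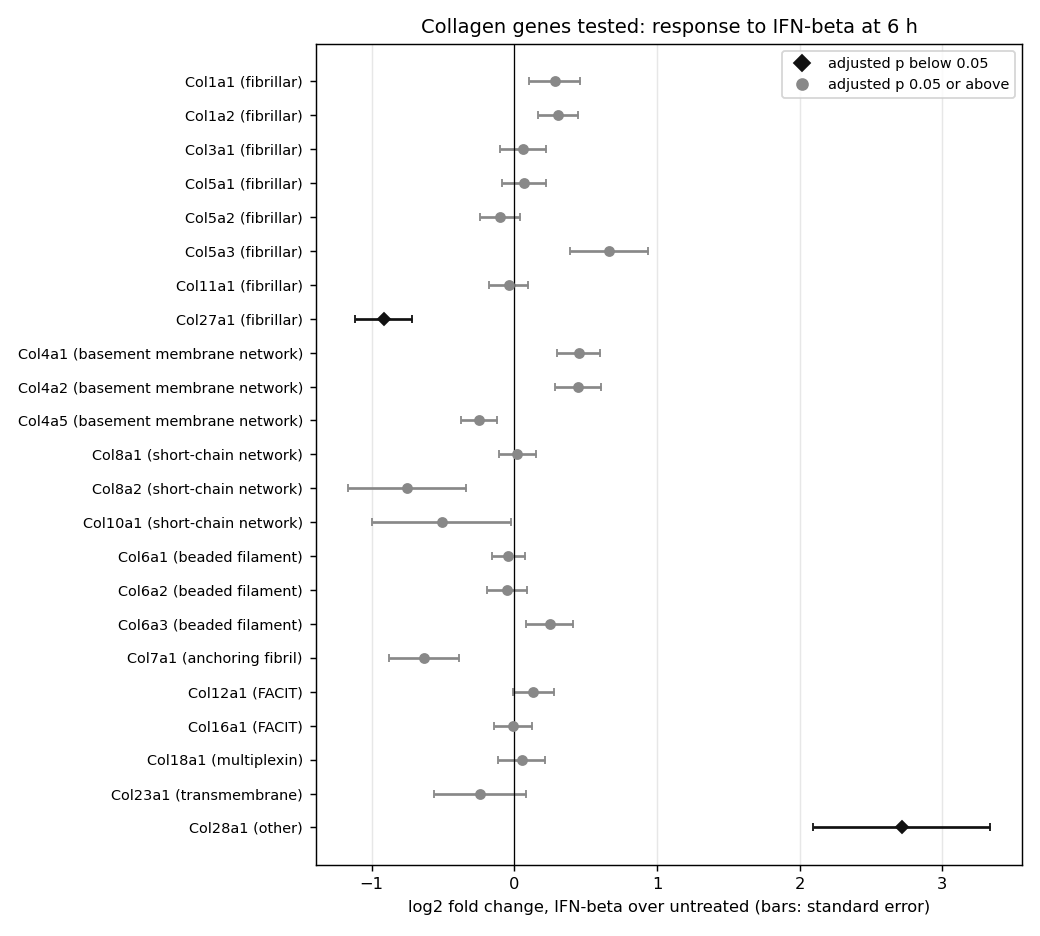
Log2 fold change of IFN-beta over untreated for the 23 collagen genes tested, with standard errors as bars and black diamonds for genes at an adjusted p below 0.05. Col28a1 (2.72) and Col27a1 (-0.91) are the diamonds, and the 16 genes with a mean of 10 CPM or more lie between -0.25 and 0.45.

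The promoter windows of these called genes are given because interferon-regulated genes often carry a gamma-activated site (GAS, TTCNNNGAA) or an interferon-stimulated response element (core of GAAA, any 2 bases, GAAA). Capitals mark GC boxes in Col27a1 and the GAS match in Col28a1, on either strand.
Col27a1, chr4:63215162-63215461, plus strand: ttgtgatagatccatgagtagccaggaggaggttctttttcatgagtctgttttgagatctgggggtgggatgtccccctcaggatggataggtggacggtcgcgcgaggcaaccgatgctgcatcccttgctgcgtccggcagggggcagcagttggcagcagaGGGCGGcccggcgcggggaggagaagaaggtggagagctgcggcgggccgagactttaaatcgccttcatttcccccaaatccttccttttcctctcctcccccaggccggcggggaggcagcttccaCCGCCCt
Col28a1, chr6:8192568-8192867, minus strand: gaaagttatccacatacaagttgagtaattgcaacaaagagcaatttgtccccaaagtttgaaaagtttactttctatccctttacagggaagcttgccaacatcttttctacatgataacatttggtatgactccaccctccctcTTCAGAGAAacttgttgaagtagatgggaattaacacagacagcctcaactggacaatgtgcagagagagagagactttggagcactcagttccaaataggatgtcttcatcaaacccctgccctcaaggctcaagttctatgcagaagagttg
Windows were found for 35 of the 44 members, 38 windows in all. A member counted if any of its windows matched, while the shares over all genes are per window. The response element core was in 0 of these 35 genes, against 3.44% of 32851 promoter windows of all genes. The GAS letters were in 2 of 35, Col28a1 and Col6a5, against 8.30% of all windows. TATAAA was in 5 of 35 (14.3%, against 13.6% of all windows), CCAAT in 13 (37.1%, against 37.4%) and the GC box in 22 (62.9%, against 35.7%). A match is a description of letters and not a binding site. Col1a1, Col2a1, Col4a3, Col5a2, Col9a3, Col12a1, Col14a1, Col22a1 and Col26a1 were not matched to a window.

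Of the 21 members not tested, 6 had 0 counts in all 4 libraries (Col6a6, Col9a1, Col9a2, Col13a1, Col22a1 and Col26a1). A pooled count of 0 allows up to 0.0796 CPM with IFN-beta and 0.0657 CPM untreated, taking 3 counts as the limit. The other 15 had at most 17 counts in any library. Those not yet given were the fibril-associated genes Col9a3, Col14a1, Col19a1 and Col20a1, the basement membrane zone gene Col15a1, and the membrane-spanning genes Col17a1 and Col25a1. Col9a3, a cartilage gene, had 9 and 7 counts with IFN-beta and 1 in each untreated library, a depth-scaled ratio of 9.68 (exact 95% interval 2.28 to 86.8, counting error only). Col9a3 overlaps the protein-coding gene Tcfl5, and without the strand setting, reads from that overlap cannot be assigned to either gene. Col19a1 had 11 pooled counts with IFN-beta and 3 untreated, a ratio of 4.44 (1.17 to 24.8). When the count filter was dropped, 0 of these 15 genes passed in edgeR, 1 had an unadjusted p under 0.05, and the lowest adjusted p was 0.0543 (Col9a3).

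The untreated libraries differed from each other more than the IFN-beta libraries did, and collagen genes shared in this. Over the 16 collagen genes with a mean of 10 CPM or more, the median absolute difference between replicates, in log2(CPM + 0.5), was 0.071 in the IFN-beta pair and 0.22 in the untreated pair. Over all 8417 tested genes of that level these medians were 0.11 and 0.20. A difference beyond 0.5 occurred in 0 of the 16 genes in the IFN-beta pair and in 2 in the untreated pair, against 1.57% and 9.59% of all such genes. Within the untreated pair, replicate 1 was below replicate 2 for Col1a1 (-0.60), Col6a3 (-0.52), Col4a2 (-0.49), Col5a1 (-0.44) and Col4a1 (-0.37), and above it for Col3a1 (0.44). In the IFN-beta pair the same 6 genes lay between -0.21 and 0.073.

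**Figure D3:**
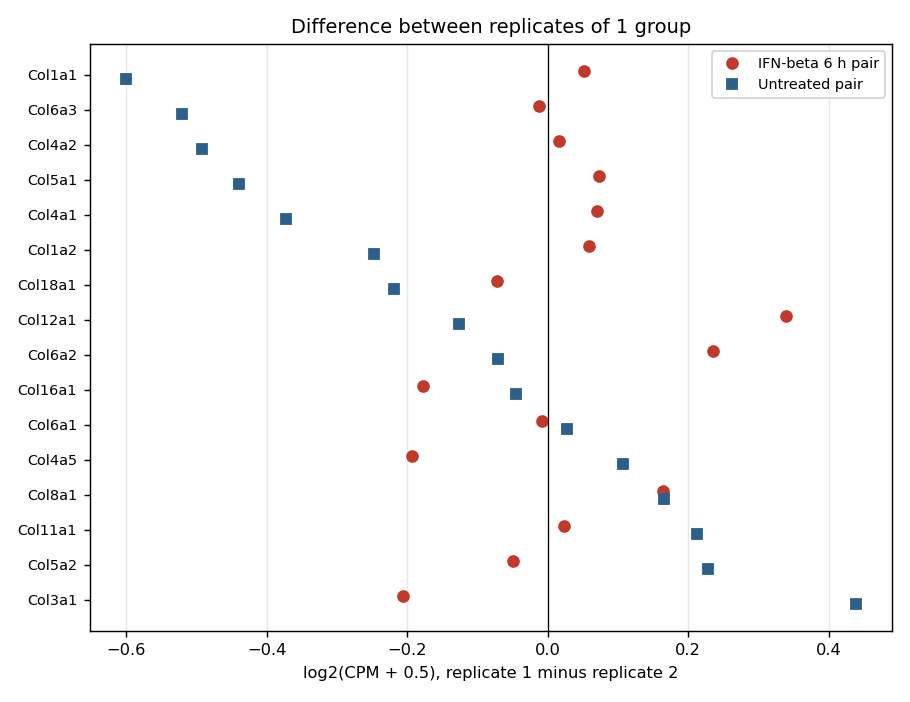
Replicate 1 minus replicate 2 in log2(CPM + 0.5) for the 16 collagen genes with a mean of 10 CPM or more, with red circles for the IFN-beta pair and blue squares for the untreated pair. The untreated differences reach from -0.60 for Col1a1 to 0.44 for Col3a1, and the IFN-beta differences from -0.21 to 0.34.

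Chains that assemble into 1 molecule can be compared within a library as a ratio of read counts, which does not depend on the scaling between libraries. With 2 libraries a side, an exact permutation test cannot go below p = 0.333, so the ratios are given without a test. The ratio of Col4a1 to Col4a2 was steady, at 2.27 and 2.19 with IFN-beta and 2.33 and 2.15 untreated. The ratio of Col1a1 to Col1a2 was 0.378 and 0.380 with IFN-beta and 0.334 and 0.427 untreated, so the treated libraries fell between the untreated ones. Col5a1 over Col5a2 was 0.0983 and 0.0903 with IFN-beta and 0.0660 and 0.105 untreated. Col6a1 over Col6a3 was 0.682 and 0.680 with IFN-beta and 1.02 and 0.699 untreated, and Col6a2 over Col6a3 was 0.231 and 0.195 against 0.311 and 0.228. In both ratios to Col6a3 untreated replicate 1 was the highest library. The ratio of Col6a1 to Col6a2 was 2.95 and 3.49 with IFN-beta and 3.29 and 3.07 untreated, so there both untreated libraries lay inside the treated range.

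**Figure D4:**
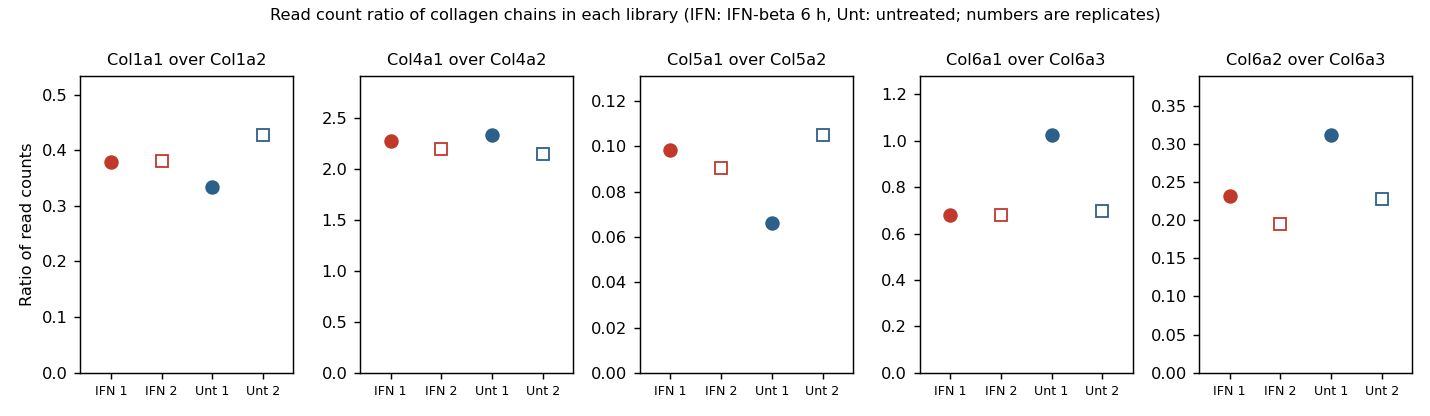
Ratio of read counts of collagen chains of 1 molecule type in each library, with IFN-beta libraries in red left of untreated libraries in blue and each axis starting at 0. Col4a1 over Col4a2 stays between 2.15 and 2.33 in all libraries, while Col6a1 over Col6a3 is 1.02 in untreated replicate 1 and 0.680 to 0.699 elsewhere.

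The genes that modify, fold, process, cross-link and bind collagen were examined in 7 lists holding 82 different genes, 73 of them tested. In edgeR, 4 of the 73 rose and 0 fell, with 16 at an unadjusted p under 0.05, near the 4.73% higher and 18.2% at an unadjusted p under 0.05 over all genes tested. DESeq2 gave 5 higher and 0 lower, limma-voom 4 and 0, and edgeR with the replicate number as a block 6 and 3. Over all genes tested, the shares higher and lower were 5.13% and 0.849% in DESeq2 and 4.82% and 0.453% in limma-voom. With the block they were 5.71% and 1.28%. The median log2 fold change over these 73 genes was 0.067.

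Cross-linking enzymes join collagen chains outside the cell, and 1 of 6 tested rose. Loxl3, a lysyl oxidase-like enzyme, had 89.0 and 89.3 CPM with IFN-beta, against 39.5 and 42.0 CPM untreated (1.13 ± 0.13, adjusted p = 0.00029). The replicates of each group were close and the groups far apart. In the list of prolyl and lysyl modification enzymes 1 of 14 tested rose. Plod3, which hydroxylates lysines and adds sugars to them, had 131 and 126 CPM with IFN-beta, against 74.5 and 86.4 CPM untreated (0.68 ± 0.13, adjusted p = 0.0124). Its call was lost without IFN-beta replicate 1 (0.65, adjusted p = 0.0923). The medians of these lists were 0.22 and 0.015.

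Of 11 tested genes for procollagen folding and export, 0 passed in edgeR, DESeq2 or limma-voom and 1 had an unadjusted p under 0.05. The prolyl isomerase gene Fkbp14 (-0.66 ± 0.24, adjusted p = 0.184) and the stress transcription factor gene Creb3l1 (0.60 ± 0.28, adjusted p = 0.293) had the lowest p-values. The collagen chaperone gene Serpinh1 had 919 and 981 CPM with IFN-beta and 1115 and 1056 CPM untreated (-0.19 ± 0.13, adjusted p = 0.476). Of 7 tested genes that trim the propeptides, 0 passed in edgeR and limma-voom, 1 passed in DESeq2 and 1 had an unadjusted p under 0.05. Adamts14, which cuts the amino-terminal propeptide, had 18.6 and 22.4 CPM with IFN-beta and 7.74 and 14.8 CPM untreated (0.85 ± 0.27, adjusted p = 0.120, but 0.0348 in DESeq2 and 0.0024 with the replicate block). The tolloid protease gene Tll1 was at 0.61 ± 0.29 (adjusted p = 0.307).

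Of 8 tested collagen receptor genes, 0 passed in edgeR, DESeq2 or limma-voom, and 1 had an unadjusted p under 0.05. This was the integrin alpha chain gene Itga1 (-0.82 ± 0.33, adjusted p = 0.217), and the discoidin receptor gene Ddr2 was at 0.23 ± 0.13 (adjusted p = 0.382). Among 10 tested genes for matrix proteins that bind collagen, 0 passed in edgeR, DESeq2 or limma-voom, and 4 had an unadjusted p under 0.05. Of these 4, Fn1 (0.54 ± 0.21, adjusted p = 0.205) and Bgn (0.38 ± 0.16, adjusted p = 0.265) were higher. For these genes both treated libraries were above both untreated ones. Aspn and Ogn were lower. Aspn (asporin, a small leucine-rich proteoglycan) had 77.1 and 79.2 CPM with IFN-beta and 234 and 107 CPM untreated (-1.12 ± 0.28, adjusted p = 0.0535). Its relative Ogn had 43.1 and 42.3 CPM with IFN-beta and 108 and 45.9 CPM untreated (-0.85 ± 0.31, adjusted p = 0.180). In both, untreated replicate 1 was far above the other 3 libraries. With the replicate block both passed as lower (adjusted p = 0.00024 for Aspn and 0.0151 for Ogn). Both also passed in edgeR without a count filter (adjusted p = 3.8e-12 and 3.0e-06). That fit gave smaller standard errors for these genes (0.15 and 0.16). It called 2.28% of all genes tested lower, against 0.495% with the default filter. Aspn passed as well with total library size (adjusted p = 0.0394) and upper quartile scaling (adjusted p = 0.0452), where Ogn did not. Without untreated replicate 1 the log2 value was -0.43 for Aspn and -0.083 for Ogn. Without untreated replicate 2 it was -1.58 and -1.34. In both genes the treated libraries were below both untreated ones, though for Ogn only slightly below untreated replicate 2.

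In the list of transcription factors linked to collagen genes 2 of 17 tested rose, beside 4.73% of all genes tested, and the list median was 0.19. Among them, Rfx5, a factor of MHC class II promoters described in human cells as a repressor of COL1A2, had 16.9 and 17.4 CPM with IFN-beta, against 7.17 and 6.67 CPM untreated (1.31 ± 0.17, adjusted p = 0.0010). Ciita, its co-activator, had at most 0.189 CPM in any library.

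Markers of fibroblasts and of myofibroblasts and smooth muscle were the most abundant of the cell type marker lists examined. Summed over 10 fibroblast markers, which include Vim, Thy1 and Pdgfra and share P4hb with the modification list, the level was 7211 to 7679 CPM with IFN-beta and 6915 to 7907 CPM untreated, and 1 of 9 tested rose (Twist1, 0.72 ± 0.18, adjusted p = 0.0437). Both treated libraries were below both untreated ones for Pdgfra (-0.62 ± 0.24, adjusted p = 0.199) and S100a4 (-0.36 ± 0.18, adjusted p = 0.326), which did not pass. Both were above for Vim (0.31 ± 0.14, adjusted p = 0.272) and Thy1 (0.22 ± 0.13, adjusted p = 0.383). The same held for Prrx1 (0.34 ± 0.13, adjusted p = 0.198) and Fbn1 (0.61 ± 0.16, adjusted p = 0.0545), and none of these passed in edgeR. Fap was near 0, with 4 and 10 counts with IFN-beta and 2 and 1 untreated. Myofibroblast and smooth muscle markers summed to 2192 to 2255 CPM with IFN-beta and 1864 to 2050 CPM untreated. Nearly all of this came from Acta2, Tagln and Cnn1. Of 3 tested, 0 passed in edgeR, DESeq2 or limma-voom and 1 had an unadjusted p under 0.05. This was Cnn1, which was lower with IFN-beta (-0.37 ± 0.12, adjusted p = 0.143), against the direction of the sum. Acta2 was at 0.27 ± 0.13 (adjusted p = 0.325) and Tagln at 0.070 ± 0.13 (adjusted p = 0.825). Sums for chondrocyte, osteoblast, macrophage and blood cell, neural and epithelial markers stayed at or below 41.5 CPM in each library, with Bglap, Ibsp, Matn1 and Hbb-b1 at 0. Endothelial markers summed to 2.01 to 3.14 CPM with IFN-beta and 0.935 to 1.06 CPM untreated, with Tie1 and Emcn at 0. Cdh5 had 24 and 19 counts with IFN-beta and 2 and 6 untreated (2.68 ± 0.53, adjusted p = 0.0140), and like Col28a1 it passed the expression filter only through the treated libraries. Kdr had 32 and 20 counts with IFN-beta and 10 and 18 untreated (1.18 ± 0.43, adjusted p = 0.177). Tek had 0 counts in both IFN-beta libraries and 5 and 2 untreated, and Pecam1 had 0 and 1 with IFN-beta and 1 and 2 untreated. The part of these markers in the collagen values was not tested. The IFN-beta libraries held 18901845 and 20714161 gene counts and the untreated libraries 18528685 and 24817342.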

How the data were processed

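The authors deposited raw read counts for each gene symbol, with a separate table for every RNA-seq library and no normalization or pooling. Trizol and an Illumina TruSeq RNA kit served for RNA and libraries, per the labels' protocols. The submitters' processing notes name the mm9 build, HTSeq 0.7.2 and TopHat2 2.0.13. The gene annotation and strand setting are not given in the sources used here. The 5 summary lines of each table, which name no gene and hold between 57.3% and 61.3% of its records, entered neither library sizes nor tests. The ChIP-seq samples were not analysed here. Values of some listed genes are not reported here.

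Genes were tested over the whole table with edgeR 4.0.16 in R 4.3.3 (quasi-likelihood F test, TMM, group as the only term, default filter with minimum count 10 and minimum total count 15), with Benjamini-Hochberg adjustment over all 12128 genes tested. Standard errors of log2 fold changes were computed as the absolute value over the square root of F. CPM values were computed from the counts with TMM-scaled library sizes. Ratios of pooled counts carry exact 95% intervals for counting error. The procedure was tested on simulated data. Alternatives were other scalings, filters and tools (DESeq2 1.42.0, limma 3.58.1 with voom), a replicate block, and each library left out.

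Members at a mean of 10 CPM or more in either group, and called members, are given in every library, and pathway lists by their called members or else the 2 lowest p-values. Serpinh1, Ciita, Fn1 and Bgn, and the promoters of Col27a1 and Col28a1, were added after their values were seen. Members and lists were chosen with earlier results of these data known. Levels per kilobase were planned and not computed, since no transcript lengths were used here, nor were protein sequences. Promoter sequences come from RefSeq (GRCm38.p6), matched by symbol. The same tables supplied names of overlapping genes.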

Additional observations from a re-analysis of the deposited data

How the results depend on the processing

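The count of collagen genes that rose, 1 of 23 with all settings as reported, was 4 of 38 without a count filter, beside 5.16% of all genes tested there. It was 0 of 21 with the stricter filter, beside 4.72%, and 0 of 23 with the DESeq2 Wald test, beside 5.13%. Fits with a library left out are given above. The count that fell, 1 as reported, was 1 in all 9 alternatives that kept every library, beside 0.445% to 2.89% of all genes tested in those fits. The median log2 fold change of the collagen genes tested, 0.019 as reported, was -0.12 with total library size and -0.054 with upper quartile scaling. Over all genes tested the median was -0.16 and -0.091 there, so collagen genes lay slightly above the shifted median. The collagen median ranged from -0.036 to 0.034 with a library left out. For genes of the pathway lists, 4 rose and 0 fell as reported. Without a count filter 8 rose and 5 fell, with a library left out 5 to 19 rose and 1 to 11 fell, and 1 fell with total library size and 1 with upper quartile scaling. With the replicate block 3 pathway genes fell (Aspn, Ogn and Scx), beside 1.28% of all genes tested. The ratio of the mean collagen share of gene counts, IFN-beta over untreated, was 0.996, and 1.08 without Rn45s, Lars2 and Mir6236 in the denominator. The cause of these shifts was not tested.

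Of the 23 collagen genes tested, 14 kept their sign in all alternatives and 9 did not, all 9 uncalled and close to 0. With total library size the value turned for Col3a1 (-0.078), Col5a1 (-0.079), Col8a1 (-0.12), Col12a1 (-0.012) and Col18a1 (-0.093). With upper quartile scaling it turned for Col3a1 (-0.011), Col5a1 (-0.0035), Col8a1 (-0.054) and Col18a1 (-0.020), and for Col16a1 (0.0018) without Rn45s, Lars2 and Mir6236. With a library left out, the values ran from -0.14 to 0.32 for Col3a1, from -0.11 to 0.31 for Col5a1, from -0.21 to 0.044 for Col5a2, from -0.14 to 0.096 for Col11a1 and from -0.062 to 0.13 for Col8a1. They ran from -0.17 to 0.065 for Col6a2, from -0.044 to 0.30 for Col12a1, from -0.100 to 0.081 for Col16a1 and from -0.031 to 0.17 for Col18a1. Over all genes tested, 574 rose and 60 fell, with 863 and 381 without a count filter and 1885 and 1728 without untreated replicate 2. The fall count was also 350 with total library size, 128 with upper quartile scaling, 103 with DESeq2, 155 with the replicate block, 227 without untreated replicate 1 and 24 without IFN-beta replicate 1.

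The replicate numbers are not stated to pair the libraries. Over the genes tested, the difference between replicates 1 and 2 in the IFN-beta pair correlated with that in the untreated pair at r = -0.088, which gives no sign of pairing. With the replicate number as a block, 1 collagen gene rose and 1 fell, beside 5.71% and 1.28% of all genes tested. The collagen median was 0.019 there, and 6 pathway genes rose. Levels per length could not be computed, so the planned choice of another length was not run. At these depths, members with 17 or fewer counts in a library limit what can be seen of Col9a3, Col19a1 and similar genes.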
